A study of Mus musculus with 10 samples.

Results

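The platelet-derived growth factor (PDGF) family was followed through RNA of O9-1 cells, a mouse cranial neural crest line, in which the chromatin genes Kat5 or Ep400 had been inactivated. The family consisted of 6 genes of 43346 in the raw count table: the receptor genes Pdgfra and Pdgfrb and the ligand genes Pdgfa, Pdgfb, Pdgfc and Pdgfd. Members were chosen by gene symbol, and the family itself was chosen from the knockout against wildtype results of these same libraries, so that its values in those comparisons are a description without a test. The libraries came from 4 wildtype samples (WT), 3 Kat5 knockout clones (Kat5 ko) and 3 Ep400 knockout clones (Ep400 ko). All were grown on Matrigel in medium with fetal calf serum, conditioned by feeder fibroblasts and supplemented with the growth factor FGF2. No further treatment was given. Each clone had been expanded from a single transfected cell after CRISPR/Cas9 editing, so that a clone is the lineage of a single cell. No such cloning is described for the WT cells. In comparisons with WT, effects of the knockout and of cloning therefore cannot be told apart. According to the study, the Kat5 clones carried frameshifts throughout, whereas the second Ep400 clone carried mainly an in-frame deletion and the third carried an in-frame deletion beside frameshifts. The WT libraries enter both knockout against wildtype comparisons.

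PDGF ligands are secreted dimers that bring receptor chains together at the cell surface and switch on their tyrosine kinases. Pdgfra binds the A, B and C chains, and Pdgfrb binds the B and D chains. The activated receptors recruit PI3 kinase, phospholipase C gamma, Src family kinases and adaptors of the Ras-ERK cascade. In the embryo, Pdgfra is needed in neural crest cells for closure of the face, with Pdgfa and Pdgfc as its ligands, and Pdgfrb is best known from pericytes and vascular smooth muscle.

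Library totals ranged from 30968945 to 48301792 counts. Values are given as normalized counts, which are raw counts divided by DESeq2 size factors over all libraries. Kat5 fell from 1994 ± 149 (SD, n = 4) normalized counts in WT to 770.9 ± 139 (SD, n = 3) in Kat5 ko, and Ep400 fell from 5914 ± 153 in WT to 2153 ± 139 in Ep400 ko. Of the 15 neural crest markers, 10 averaged at least 100 normalized counts in WT, while Sox10 and Foxd3, which define early neural crest, were at 0 in every library. Of 12 markers of facial mesenchyme and fibroblasts, 10 reached that level. Of 12 pericyte and smooth muscle markers, 3 reached it (Cspg4, Acta2 and Notch3) and 5 stayed under 10 normalized counts in every library, and 0 of 6 endothelial markers reached it. In bulk RNA, more cells with a transcript and more transcript per cell cannot be told apart.

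Pdgfra was 4.77-fold higher in Ep400 ko than in WT, and Pdgfrb was 1.93-fold higher. In Kat5 ko both receptor means lay below WT. Pdgfa and Pdgfc, which supplied nearly all ligand transcript, stayed close to WT in both knockouts, and Pdgfb and Pdgfd were scarce throughout.

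**Figure D1:**
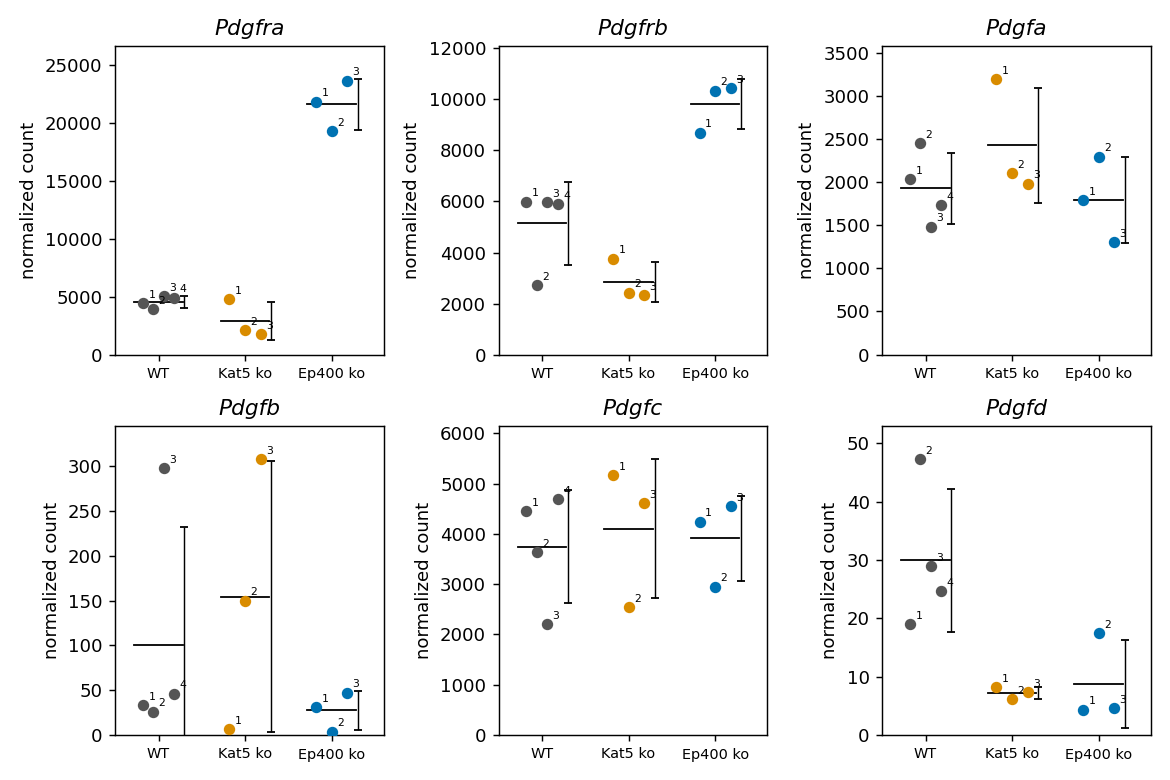
Normalized counts of the 6 PDGF genes (vertical axes, linear from 0) in WT, Kat5 ko and Ep400 ko; points are libraries with their replicate numbers, horizontal lines are means and bars are SD. The 3 Ep400 ko clones sit between 19284 and 23643 for Pdgfra, above every other library.

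Among the receptors, Pdgfra encodes the alpha chain. Its normalized count was 4438, 3906, 5027 and 4911 in WT 1 to 4. It was 4803, 2095 and 1774 in Kat5 ko clones 1 to 3. It was 21825, 19284 and 23643 in Ep400 ko clones 1 to 3. The Ep400 ko clones lay above all WT and Kat5 ko libraries, and the 2 libraries of Kat5 ko clones 2 and 3 lay below all WT libraries, with clone 1 inside the WT range. The fitted log2 fold change was 2.25 ± 0.15 (SE) in Ep400 ko against WT. In Kat5 ko against WT it was -0.68 ± 0.33, and it was -1.27 without clone 1.

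Pdgfrb encodes the beta chain. Its normalized count was 5991, 2708, 5972 and 5889 in WT 1 to 4. It was 3759, 2428 and 2334 in Kat5 ko clones 1 to 3, and 8688, 10341 and 10427 in Ep400 ko clones 1 to 3. WT 2 stood apart from the other WT libraries and lay inside the Kat5 ko range, so that Kat5 ko and WT overlapped, while every Ep400 ko clone lay above every WT library. The log2 fold change was 0.95 ± 0.27 (SE) in Ep400 ko against WT and -0.88 ± 0.31 in Kat5 ko against WT. Median log2 differences of the other chromosome 18 genes from the WT mean were 0.30, -0.21 and 0.18 in Kat5 ko clones 1 to 3 and lay between -0.11 and 0.02 in Ep400 ko. With the chromosome medians taken off, the Pdgfrb difference of Ep400 ko from Kat5 ko was 1.96 on the log2 scale.

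The clones of the 2 knockouts were also set against each other. These are the clone libraries on which the family was chosen, so the members' differences are a description here too. Pdgfra was 7.38-fold higher in Ep400 ko than in Kat5 ko, with a log2 difference of 2.88 ± 0.42 (SE), and Pdgfrb was 3.42-fold higher, with a log2 difference of 1.78 ± 0.25. All 3 Ep400 ko clones lay above all 3 Kat5 ko clones for both receptors. With 1 clone left out at a time, the difference was 2.64 to 3.47 for Pdgfra and 1.66 to 2.04 for Pdgfrb on the log2 scale.

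**Figure D2:**
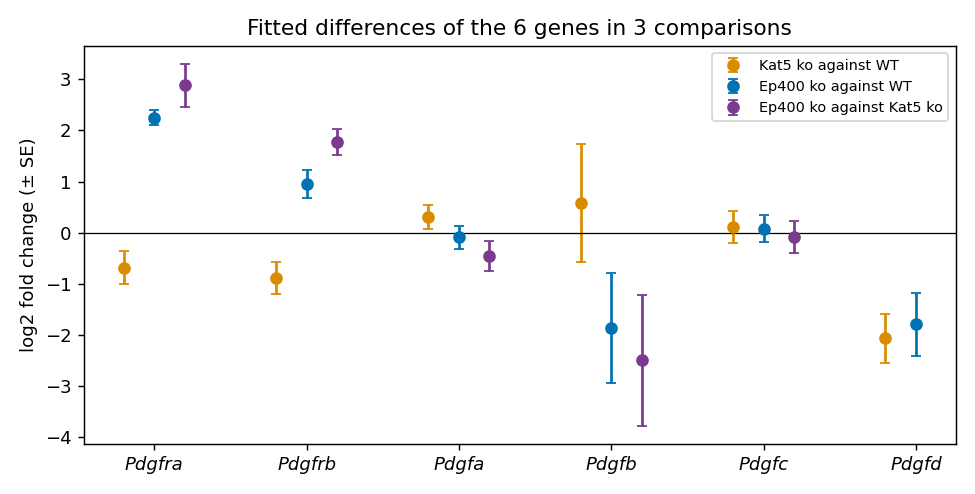
Fitted log2 fold changes (vertical axis) of the 6 PDGF genes in the 3 comparisons named by colour; points are edgeR estimates and bars are SE. Both receptors lie above 0 in Ep400 ko against WT and below 0 in Kat5 ko against WT, and Pdgfd was not tested in Ep400 ko against Kat5 ko because of its low counts.

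Pdgfa encodes the A chain, the main embryonic partner of Pdgfra. Its normalized count was 2033, 2449, 1484 and 1733 in WT 1 to 4. It was 3193, 2102 and 1982 in Kat5 ko clones 1 to 3, and 1790, 2294 and 1299 in Ep400 ko clones 1 to 3. All groups overlapped, with Kat5 ko clone 1 the highest library. The log2 fold changes were 0.31 ± 0.23 (SE) in Kat5 ko and -0.09 ± 0.23 in Ep400 ko against WT, and the difference of Ep400 ko from Kat5 ko was -0.45 ± 0.29. The antisense gene 6330403L08Rik overlaps Pdgfa and rose in Ep400 ko against WT by 1.23 on the log2 scale (adjusted p = 0.00739). Whether counting used strand is not given in the sources used here, so reads of this pair cannot be told apart with certainty.

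Pdgfc encodes the C chain, which is secreted in a latent form and activated by proteolysis. Its normalized count was 4452, 3638, 2201 and 4692 in WT 1 to 4. It was 5164, 2544 and 4610 in Kat5 ko clones 1 to 3, and 4240, 2950 and 4552 in Ep400 ko clones 1 to 3. Each group held 1 low library, and all groups overlapped. The log2 fold change was 0.11 ± 0.31 (SE) in Kat5 ko and 0.08 ± 0.27 in Ep400 ko against WT, and the difference of Ep400 ko from Kat5 ko was -0.08 ± 0.31.

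Pdgfb encodes the B chain, a ligand of both receptors. Its raw count was 28, 24, 309 and 56 in WT 1 to 4. It was 6, 122 and 378 in Kat5 ko clones 1 to 3, and 36, 3 and 52 in Ep400 ko clones 1 to 3. All groups overlapped, with 50.4-fold between the highest and lowest normalized count among the Kat5 ko clones. Median differences of the other chromosome 15 genes from the WT mean were 0.14 in WT 3, -0.35 in Kat5 ko clone 1 and 0.20 in clone 3 on the log2 scale, and their part in the Pdgfb values was not tested. The log2 fold changes against WT were 0.58 ± 1.16 (SE) in Kat5 ko and -1.86 ± 1.07 in Ep400 ko. Without WT 3 they were 2.11 and -0.35. The difference of Ep400 ko from Kat5 ko was -2.49 ± 1.28 on the log2 scale, and -3.13 to -1.50 with 1 clone left out at a time.

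Pdgfd encodes the D chain, a ligand of Pdgfrb. Its raw count was 16, 44, 30 and 30 in WT 1 to 4. It was 8, 5 and 9 in Kat5 ko clones 1 to 3, and 5, 15 and 5 in Ep400 ko clones 1 to 3. After normalization all clones of both knockouts lay below all WT libraries, although Ep400 ko clone 2 at 17.4 came close to WT 1 at 19.0. The log2 fold changes against WT were -2.06 ± 0.48 (SE) in Kat5 ko and -1.79 ± 0.62 in Ep400 ko. The Ep400 ko value was -2.73 without clone 2. Pdgfd passed the filter on low counts in both comparisons with WT through the WT libraries, and did not pass it between the knockouts.

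With edgeR and a threshold of 0.05 on the adjusted p, 0 of 6 members were called in Kat5 ko against WT, where 0.499% of 13434 genes were called, 0.127% higher and 0.372% lower. Across all genes of that comparison 2993 had an unadjusted p of at most 0.05, and DESeq2 called 1382. In Ep400 ko against WT, 2 of 6 members were called, both higher, where 13.9% of 13836 genes were called, 8.09% higher and 5.76% lower. The call of Pdgfrb lay at the threshold, and it was lost on leaving out WT 1, 3 or 4 or any 1 Ep400 ko clone. Over all genes, 1917 calls became 826, 1668 and 873 without those WT libraries. They became 2016, 1451 and 1730 without Ep400 ko clones 1 to 3. In Ep400 ko against Kat5 ko, 2 of 5 members that could be fitted were called, both receptors and both higher, where 7.32% of 13587 genes were called, 4.34% higher and 2.97% lower. Without Kat5 ko clone 2 or 3, or Ep400 ko clone 2 or 3, that count was 0. Calls over all genes fell from 994 to 81, 5, 34 and 4 in these fits, in the same order. Since the family was chosen on these libraries, nothing is read from these counts. All libraries of a group lay above the other in 9.44% of genes for Kat5 ko against WT, 15.6% for Ep400 ko against WT and 20.1% for Ep400 ko against Kat5 ko, and below it in 10.3%, 14.6% and 18.4%.

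Levels of different genes were compared per length, as depth-scaled counts (CPM, with TMM library sizes) for each kilobase of exon, written CPM per kb. In WT the order was Pdgfrb at 25.3 ± 8.01 (SD, n = 4), Pdgfc at 19.8 ± 5.91, Pdgfa at 16.6 ± 3.55, Pdgfra at 12.3 ± 1.41, Pdgfb at 0.654 ± 0.857 and Pdgfd at 0.256 ± 0.104. Each of the upper 4 overlapped its neighbour in this order, as did Pdgfb and Pdgfd. In Ep400 ko Pdgfra came first at 58.7 ± 6.45 (SD, n = 3), followed by Pdgfrb at 48.8 ± 4.80, Pdgfc at 20.97 ± 4.71 and Pdgfa at 15.6 ± 4.203. With the longest transcript in place of all exons, Pdgfc at 28.7 stood before Pdgfrb at 25.6 and Pdgfa at 25.2 in WT.

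The ratio of Pdgfra to Pdgfrb per length was 0.405 to 0.788 in WT, 0.416 to 0.698 in Kat5 ko, and 1.37, 1.02 and 1.24 in Ep400 ko clones 1 to 3. The sum of both receptors was 23.8 to 43.1 CPM per kb in WT, 16.3 to 31.6 in Kat5 ko and 103 to 117 in Ep400 ko. The ligand sum was 26.8 to 41.5 in WT, 32.6 to 55.3 in Kat5 ko and 35.6 to 38.7 in Ep400 ko. The ratio of receptor to ligand transcript was 0.581 to 1.61 in WT, 0.571, 0.538 and 0.373 in Kat5 ko clones 1 to 3, all below WT, and 2.66 to 3.22 in Ep400 ko, all above WT. Kat5 ko clone 1 lay only just below WT 2 at 0.581, the WT library that stood apart for Pdgfrb. Pdgfa gave 31.5% to 55.7% of ligand transcript over all libraries and Pdgfc 41.3% to 67.6%. Pdgfb reached its highest share, 7.23%, in WT 3, and Pdgfd never exceeded 0.985%.

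**Figure D3:**
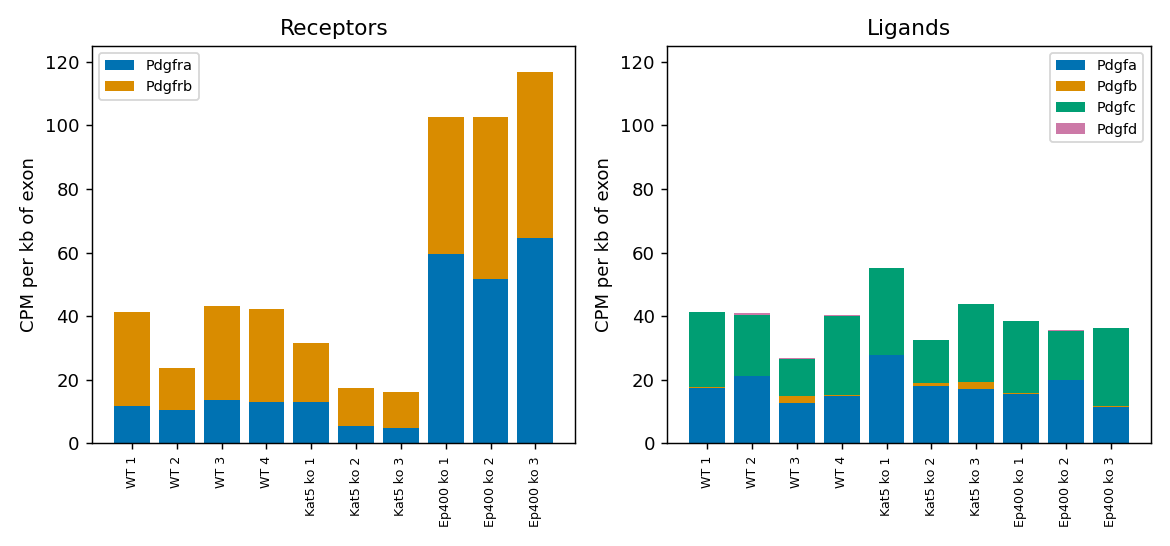
Stacked levels per length (CPM per kb of exon, vertical axes from 0) of the receptors (left) and ligands (right) in each library. Receptor sums are 103 to 117 in Ep400 ko and at most 43.1 elsewhere, whereas ligand sums stay between 26.8 and 55.3.

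The genes lie apart in the genome (GRCm38, GENCODE M21, 1-based). Pdgfra is at chr5:75152292-75198215 on the plus strand and Pdgfa at chr5:138976014-138997370 on the minus strand of the same chromosome. Pdgfrb is at chr18:61045150-61085061, Pdgfb at chr15:79995874-80014977, Pdgfc at chr3:81036416-81214040 and Pdgfd at chr9:6168584-6378850. The nearest protein-coding neighbours of Pdgfra are Gsx2, a homeobox gene, and Kit, the related receptor of stem cell factor. Gsx2 had 0 counts in all libraries, and Kit had 1 count in WT 3 and 0 elsewhere. Of 9 other protein-coding genes starting within 1000 kb of the Pdgfra start, 5 were tested. By edgeR, 0 of them were called in any of the 3 comparisons. Over all genes, 0.499% were called in Kat5 ko against WT, 13.9% in Ep400 ko against WT and 7.32% between the knockouts. With 5 genes tested, nothing is read from that count. Chic2, 107.5 kb upstream, had a log2 fold change of 0.07 in Ep400 ko against WT (adjusted p = 0.787). The other chromosome 5 genes had median log2 differences from the WT mean of 0.01, 0.10 and 0.00 in Ep400 ko clones 1 to 3.

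The neighbours of Pdgfrb are Cdx1, at 0 to 2 counts, and Csf1r, the related receptor of macrophage colony-stimulating factor, at 0 to 18 counts except for 89 in Kat5 ko clone 3. Of 18 genes tested within 1000 kb in Ep400 ko against WT, Camk2a rose by 2.67 on the log2 scale (adjusted p = 0.0292) and Pcyox1l fell by 0.87 (adjusted p = 0.0203). Over all genes, 13.9% were called in that comparison. Next to Pdgfc, Glrb was higher in Ep400 ko than in Kat5 ko by 2.39 (adjusted p = 0.0482), and Ctso by 2.90 (adjusted p = 0.0523). Next to Pdgfb, Rpl3, a ribosomal protein gene, fell by 0.72 in Ep400 ko against WT (adjusted p = 0.0159), while Cbx7 had a log2 fold change of 0.33 (adjusted p = 0.567). Next to Pdgfa, Gm5294 had 0 counts, and Prkar1b had -0.69 (adjusted p = 0.52). Next to Pdgfd, Casp12 had 1.05 (adjusted p = 0.115) and Dync2h1 had 0.70 (adjusted p = 0.16).

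**Figure D4:**
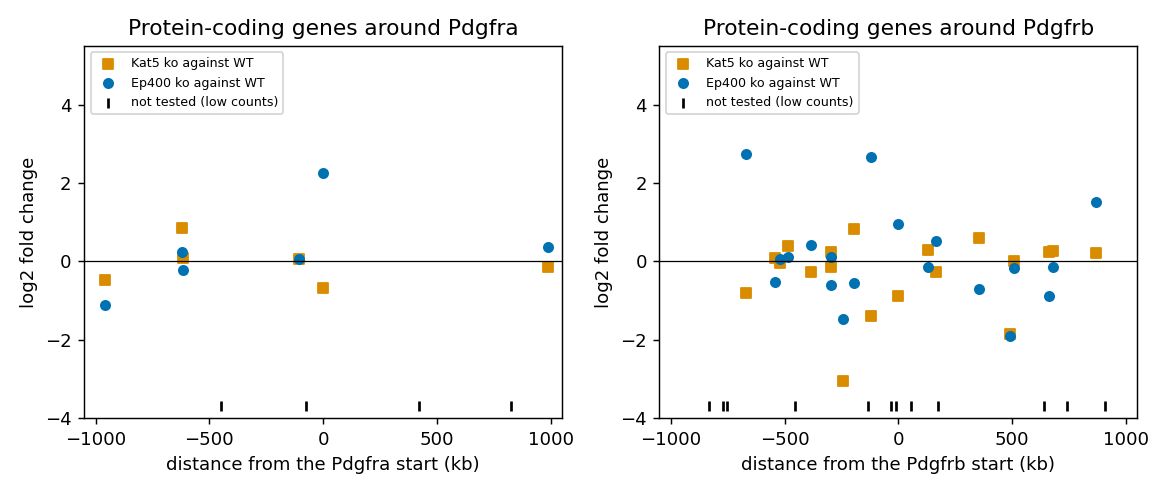
Log2 fold changes against WT (vertical axis) of protein-coding genes by distance of their start from the start of Pdgfra or Pdgfrb (horizontal axis, kb); squares are Kat5 ko, circles are Ep400 ko and ticks are genes not tested. In Ep400 ko Pdgfra at 2.25 stands above its 5 tested neighbours, the highest of which is at 0.38, and in Kat5 ko Pdgfra at -0.68 lies below its neighbours at -0.47 to 0.86.

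The promoters of Pdgfra and of its ligand gene Pdgfa are shown because both lie on chromosome 5 while Pdgfra alone was far above WT in Ep400 ko. Sequences are those of RefSeq (GRCm38.p6), from 250 bases before to 50 after the start, and 4 of 6 members had an entry. Both are written 5′ to 3′ on the gene's strand, at chr5:75152001-75152300 (plus) and chr5:138994895-138995194 (minus), and capitals mark GC boxes.
Pdgfra: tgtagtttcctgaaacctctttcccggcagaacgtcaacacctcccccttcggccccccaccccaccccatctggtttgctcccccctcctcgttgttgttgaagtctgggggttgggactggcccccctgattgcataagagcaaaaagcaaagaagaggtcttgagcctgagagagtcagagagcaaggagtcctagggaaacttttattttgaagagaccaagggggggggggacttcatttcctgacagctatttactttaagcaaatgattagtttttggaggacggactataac
Pdgfa: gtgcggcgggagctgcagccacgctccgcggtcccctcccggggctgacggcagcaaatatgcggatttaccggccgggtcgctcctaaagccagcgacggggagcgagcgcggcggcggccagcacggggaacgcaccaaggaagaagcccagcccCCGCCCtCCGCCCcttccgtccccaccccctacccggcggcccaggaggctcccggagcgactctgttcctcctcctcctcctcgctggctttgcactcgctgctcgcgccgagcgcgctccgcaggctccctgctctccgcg
RefSeq lists 2 starts for Pdgfa, and the more upstream one is printed. Its sequence had 73.3% G and C and 37 CpG dinucleotides, that of the other start, at chr5:138994232-138994531, had 67% and 24, and the Pdgfra sequence had 51% and 5, against medians of 52.7% and 7 over 32851 promoters. Searched on both strands, the GC box GGGCGG was found in 35.7% of all promoters at 2 places in the printed Pdgfa window, at 1 place in the other, and not in Pdgfra. The TATA box TATAAA (13.6% of promoters), CCAAT (37.4%), the AP-1 site TGACTCA (5.2%) and the E box CACGTG (7.15%) were in none of these windows. In Pdgfd the TATA box was found at base 91 of its window.

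The genes whose log2 levels followed each member most closely over the 10 libraries are given as a description. For Pdgfra they were Ckb, brain-type creatine kinase, with Pearson's r of 0.985, Marveld1 with 0.981 and Ephb6, an ephrin receptor lacking kinase activity, with 0.979, of 10901 genes ranked. Ckb averaged 122 normalized counts in WT, 52.5 in Kat5 ko and 964 in Ep400 ko. For Pdgfrb they were Nhej1 (0.975), Wisp2 (0.97) and Cnnm2 (0.966). Wisp2, a secreted CCN family protein, averaged 82.7, 5.51 and 1518 normalized counts in the same order. For Pdgfa they were Dnajb1 (0.942), Uqcr11 (0.921) and Bola2 (0.916), for Pdgfb Ctnnb1 (0.93), Plcl2 (0.921) and Fbxl6 (0.92), and for Pdgfc Zc2hc1a (0.888), Cgnl1 (0.886) and Lox (0.883). The libraries of a group share their condition, so that these values carry no p.

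The wider pathway was read from 6 lists with 106 genes in the table. In Ep400 ko against WT, 7 of 95 tested genes rose and 3 fell, which is 10.5% against the 13.9% of all genes, and their median log2 difference was 0.00 against 0.04 over all genes. In Kat5 ko against WT, 1 of 95 rose and 0 fell, 1.05% against 0.499%. Between the knockouts, 5 of 96 were higher in Ep400 ko and 0 lower, 5.21% against 7.32%. The count in Ep400 ko against WT was 1 without WT 1, 3 without WT 2 or WT 4 and 4 without Ep400 ko clone 2. Calls over all genes fell from 1917 to 826, 1000, 873 and 1451 without WT 1, WT 2, WT 4 and that clone. In Kat5 ko against WT the count was 19 without Kat5 ko clone 1, where 2651 of 13703 genes were called. It was 0 without WT 1 or WT 4, where 1 and 2 genes were called. Between the knockouts it was 16 without Kat5 ko clone 1, where 2537 of 14095 genes were called. It was at most 2 without any other clone, where 4 to 368 genes were called. Since calls over all genes moved as well, nothing is read from these counts.

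Among 26 receptor-proximal signalling proteins, 25 were tested, and 1 rose and 2 fell in Ep400 ko against WT, where 13.9% of all genes were called. Pik3r1, the regulatory subunit through which PI3 kinase docks on the receptors, rose by 0.82 ± 0.23 (SE, adjusted p = 0.046) from 2964 to 5207 normalized counts, and exceeded Kat5 ko by 1.39 ± 0.27 (adjusted p = 0.0338). Plcg1, phospholipase C gamma, fell by 0.62 ± 0.17 (adjusted p = 0.0428), with all Ep400 ko clones below all WT libraries. Grb10, an imprinted adaptor, fell by 4.43 ± 1.08 (adjusted p = 0.0305), but its normalized count was 8362, 8078, 473 and 8986 in WT 1 to 4 and 22469, 20.8 and 19447 in Kat5 ko clones 1 to 3. It was thus low in WT 3 and Kat5 ko clone 2 as well as in the Ep400 ko clones, at 550, 56.8 and 276. In Kat5 ko against WT 0 of the 25 were called by edgeR, where 0.499% of all genes were called.

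Of 13 negative regulators of the receptors, 12 were tested, and 1 was called in Ep400 ko against WT and 1 between the knockouts. Over all genes, 13.9% and 7.32% were called in these comparisons. Ptprj, a phosphatase that acts on PDGF receptors, rose in Ep400 ko by 1.17 ± 0.29 (SE, adjusted p = 0.0314). Socs3, a cytokine signalling inhibitor, was higher in Ep400 ko than in Kat5 ko by 1.67 ± 0.29 (adjusted p = 0.0304), although WT 3 at 3720 normalized counts lay within the Ep400 ko range of 2212 to 4428. Among 21 genes of the ERK and AKT cascade, Foxo1, a transcription factor held in check by AKT, was the only gene called. The shares over all genes are the same 13.9% and 7.32%. Foxo1 rose in Ep400 ko by 2.69 ± 0.31 (adjusted p = 0.00291) and exceeded Kat5 ko by 2.85 ± 0.55 (adjusted p = 0.0343). Its normalized count was 92.4 to 189 in WT and 628, 940 and 1221 in Ep400 ko clones 1 to 3.

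Early response genes, which growth factors induce within minutes to hours, had median log2 fold changes of 0.50 in Kat5 ko and 0.55 in Ep400 ko against WT. In Ep400 ko 3 of 19 rose and 0 fell, where 8.09% of all genes rose, and in Kat5 ko 1 of 18 rose, where 0.127% did. Egr1, a zinc finger factor, rose in Kat5 ko by 2.59 ± 0.23 (SE, adjusted p = 0.00924) and in Ep400 ko by 2.17 ± 0.56 (adjusted p = 0.0375). Its normalized count was 143 to 238 in WT, 991 to 1274 in Kat5 ko and 1647, 509 and 243 in Ep400 ko clones 1 to 3. Spry4, a feedback inhibitor of receptor tyrosine kinases, rose in Ep400 ko by 1.25 ± 0.25 (adjusted p = 0.016), with all clones above WT.

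**Figure D5:**
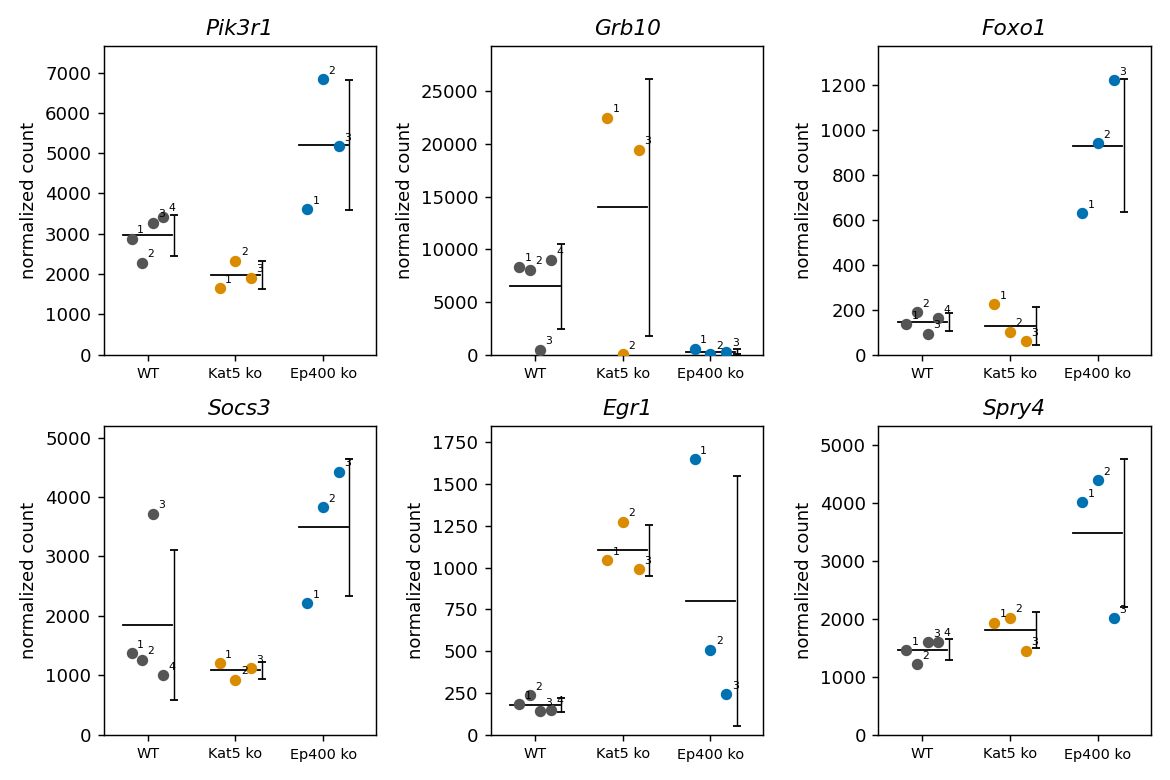
Normalized counts (vertical axes, linear from 0) of 6 pathway genes in WT, Kat5 ko and Ep400 ko; points are libraries with their replicate numbers, lines are means and bars are SD. Grb10 is split within WT and Kat5 ko, whereas Foxo1 is above 600 in all Ep400 ko clones and at most 224 elsewhere.

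Of 12 genes for ligand processing and extracellular partners, 8 were tested in Ep400 ko and 9 in Kat5 ko against WT. Their median log2 fold changes were 0.42 and 0.30, and 0 were called by edgeR in any comparison. Over all genes, 13.9% were called in Ep400 ko against WT, 0.499% in Kat5 ko against WT and 7.32% between the knockouts. With so few genes tested, nothing is read from that count. Among 15 related receptors and ligands in the table, 10 were tested. Kitl, the ligand of Kit, rose in Ep400 ko by 1.63 ± 0.39 (SE, adjusted p = 0.0274) and exceeded Kat5 ko by 1.58 ± 0.37 (adjusted p = 0.0482), while Kit itself was at or near 0. Flt1, a receptor of vascular endothelial growth factor, fell in Ep400 ko by 1.01 ± 0.26 (adjusted p = 0.0346). Its normalized count was 6245, 6387, 3174 and 6588 in WT 1 to 4. It was 7531, 3221 and 5689 in Kat5 ko clones 1 to 3, and 2827, 3102 and 2344 in Ep400 ko clones 1 to 3. WT 3 and Kat5 ko clone 2 thus lay close to the Ep400 ko clones. Pgf, a ligand of Flt1, was higher in Ep400 ko than in Kat5 ko by 4.94 ± 1.06 (adjusted p = 0.0407), with 394, 2895 and 425 normalized counts in Ep400 ko clones 1 to 3, 14.7 to 78.3 in Kat5 ko and 280 to 393 in WT.

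Markers of other cell types moved beside the receptors in part. The summed pericyte and smooth muscle list was 4083 to 7101 normalized counts in WT, 4329 to 29952 in Kat5 ko and 8971 to 10548 in Ep400 ko. Cspg4, a proteoglycan of pericytes and mesenchymal progenitors, was 2628 to 6244 in WT and 6732 to 9621 in Ep400 ko, and its lowest WT library was WT 2, which was also lowest for Pdgfrb. Notch3, a pericyte receptor, lay the other way, at 503 to 1102 in WT, 60.3 to 365 in Ep400 ko and 24.5 to 491 in Kat5 ko. Acta2, smooth muscle actin, was 18629 in Kat5 ko clone 1, the Kat5 ko clone with the highest Pdgfra, and at most 2128 in all other libraries. The markers under 10 normalized counts throughout were Myh11, Cnn1, Des, Kcnj8 and Abcc9. The summed neural crest list was 14792 to 18359 in WT, 14486 to 21130 in Kat5 ko and 18667 to 21430 in Ep400 ko. In this sum all Ep400 ko clones lay above WT, but its genes did not move together. Twist1, Tfap2a, Snai2, Zeb2, Pax3 and Msx2 lay above WT in all Ep400 ko clones, with Twist1 close to WT (2310 to 2953 in WT and 3015 to 4478 in Ep400 ko). Sox9, at 2135 to 3071 in WT and 1512 to 2057 in Ep400 ko, lay below. Snai1 (640 to 896 and 519 to 619) and Ets1 (3304 to 4550 and 2060 to 3294) also lay below, but their ranges nearly touched. Over all genes, all Ep400 ko clones lay above WT in 15.6% and below it in 14.6%. The summed neuronal and glial list was 171 to 263 in WT, 106 to 450 in Kat5 ko and 415 to 902 in Ep400 ko, again with all Ep400 ko clones above WT. Epithelial markers summed to 66.6 to 180 in WT, 26 to 32.6 in Kat5 ko and 20.6 to 36.3 in Ep400 ko, and endothelial markers to 36.5 to 62.3, 7.36 to 25.4 and 8.12 to 17.2, with all clones of both knockouts below WT in each list. The summed mesenchyme list (292357 to 400892 in WT, 291289 to 357151 in Kat5 ko and 316903 to 464936 in Ep400 ko) and the immune list (652 to 1072, 621 to 753 and 245 to 874) overlapped between groups. Single mesenchyme genes did not move together. Prrx2, at 1339 to 2778 in WT and 4657 to 4948 in Ep400 ko, lay above WT in all Ep400 ko clones, as did S100a4 and Pdpn. Cd34, at 10315 to 23618 in WT and 1627 to 7540 in Ep400 ko, lay below, as did the scarce Lum. The other mesenchyme genes overlapped between WT and Ep400 ko. The part of these markers in the receptor levels was not tested.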

How the data were processed

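RNA of O9-1 cells was poly-A selected by the authors, sequenced as paired reads and mapped to mm10 (the submitters' processing notes name STAR 2.7.3, DESeq2 1.36.0 and R 4.2.1). The program that made the counts, its strand setting and its annotation are not given in the sources used here. The deposited raw counts (43346 genes, 10 libraries) were used for every test. The deposited normalized counts, a signal in which each column is a constant multiple of the raw counts made by the authors, served only as an alternative.

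Each pair of groups was fitted separately with edgeR 4.0.16 (filterByExpr, then TMM factors, quasi-likelihood test without robust estimation) in R 4.3.3. Benjamini-Hochberg adjustment ran over all genes tested, and genes with an adjusted p of at most 0.05 were called. After these calls had been seen, robust estimation, TMM factors computed before the filter, and both together were also run. They gave 84, 82 and 83 calls in Kat5 ko against WT, where 67 had been called. The fit as first specified was kept as the reported one, and these 3 settings are given among the alternatives. The scripts were tested on simulated data.

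Normalized counts used DESeq2 1.42.0 size factors over all libraries. Lengths and positions came from GENCODE M21, which held 42462 of the 43346 genes. Members and lists were chosen with earlier results of these data known. The direct comparison of the knockouts was planned as a test of the members, but it shares the clone libraries on which they were chosen, so their values there are given without p-values. Named genes were all members, Kat5, Ep400, the nearest protein-coding neighbours, up to 3 called list genes per direction, list and comparison with a mean above 100 normalized counts, and the 3 genes with the highest Pearson correlation (log2 CPM, prior count 2) to each member above that mean. Neighbours within 1000 kb, promoter motifs and single marker genes were chosen after values were seen.

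Other alternatives were DESeq2, limma-voom (limma 3.58.1), other scalings, no filter, 1 fit of all libraries, a replicate block, chromosome shifts taken off and leaving out each library. The labels name the WT samples as biological replicates, which the study calls independent, and the knockouts as clones. The p-values thus set differences against the spread between WT samples and between clones. Within-group chi-square values of 28.1 to 258 per degree of freedom showed no library deposited in duplicate. Intervals were not computed, and depth limits Pdgfb and Pdgfd most.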

Additional observations from a re-analysis of the deposited data

Results flagged for a closer look

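In groups of 4 the distance of an extreme library from its nearest neighbour was compared with the range of the group by Dixon's test, for 8 genes in WT. Chance marks about 1 in 20 such groups. Pdgfrb in WT 2, at 2708 normalized counts, lay far below the other WT libraries. Pdgfb in WT 3, at 297.5 normalized counts, lay far above the others.

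Pdgfra, with a log2 difference of 2.88 between Ep400 ko and Kat5 ko, and Pdgfrb with 1.78 are given as a description, because the family was chosen on the same clone libraries. Pathway genes whose clones differed between Ep400 ko and Kat5 ko, by edgeR with the threshold of 0.05 on the adjusted p, were Foxo1 with 2.85, Kitl with 1.58, Pgf with 4.94, Pik3r1 with 1.39 and Socs3 with 1.67, all higher in Ep400 ko.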

How the results depend on the processing

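No called member changed direction under any alternative run. Without 1 library, Pdgfra in Kat5 ko against WT ranged from -1.27 to -0.42 and Pdgfd in Ep400 ko against WT from -2.73 to -1.46 on the log2 scale. Between the knockouts, Pdgfra ranged from 2.64 to 3.47 and Pdgfrb from 1.66 to 2.04. On leaving out libraries, called members numbered 0 to 3 in Kat5 ko and 1 to 2 in Ep400 ko against WT. Between the knockouts they numbered 0 to 2. Called pathway genes numbered 0 to 19, 1 to 12 and 0 to 16 in this order. Calls over all genes ranged from 1 to 2651, 826 to 2016 and 4 to 2537 in the same fits. The 3 members in Kat5 ko without clone 1 were Pdgfra, Pdgfrb and Pdgfd, and nothing is read from these calls, since the family was chosen on these libraries.

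DESeq2 called 1 member in Kat5 ko against WT (Pdgfd) and 3 in Ep400 ko against WT (both receptors and Pdgfd). The family was chosen on these libraries, and the few Pdgfd counts lay mostly in WT. Nothing is therefore read from calls of members under any setting. DESeq2 called 9, 17 and 15 pathway genes in the 3 comparisons in the order above. Over all genes it called 1382 of 14609, 3177 of 16208 and 3021 of 15646. limma-voom gave 2 pathway genes in Kat5 ko, where it called 98 of 13434 genes. Without a filter there were 2 in Kat5 ko against WT and 10 between the knockouts, and with 1 fit of all libraries 0 and 16. In Ep400 ko against WT, 1 member in place of 2 was called with limma-voom, DESeq2 size factors, 1 fit of all libraries, TMM factors before the filter and those with robust estimation. Robust estimation alone left the count at 2. The last 3 settings were chosen after seeing the data. The cause of these changes was not tested.

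Same-numbered libraries had residual correlations of -0.096 to 0.223, so the numbers do not pair the samples. With the replicate block, called pathway genes were 0, 0 and 1, called members 0, 1 and 2, and Pdgfra between the knockouts 3.03.

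Over all genes, called counts differed by over 1.5 times from 67, 1917 and 994. DESeq2 gave 1382, 3177 and 3021. No filter gave 245 in Kat5 ko against WT and 1803 between the knockouts. 1 fit of all libraries gave 26, 1273 and 3539. The block gave 0, 173 and 213. Leaving out 1 library moved the calls as well. In Kat5 ko against WT there were 1 without WT 1, 33 without WT 3 and 2 without WT 4. There were 2651, 36 and 4 without Kat5 ko clones 1 to 3. In Ep400 ko against WT there were 826, 1000 and 873 without WT 1, WT 2 and WT 4. Between the knockouts there were 2537, 81 and 5 without Kat5 ko clones 1 to 3, and 368, 34 and 4 without Ep400 ko clones 1 to 3. Library size alone moved the share of higher calls between the knockouts from 59.4% to 72.5%. Levels per length of Pdgfra, Pdgfa and Pdgfc in WT moved to 18.04, 25.2 and 28.7 with the longest transcript.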
